A study of Mus musculus with 2 samples.

Results

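The T cell receptor recognises antigen but has no signalling tail of its own, and it reaches the surface and signals only together with the CD3 chains. The genes described are 9 that encode this apparatus and its first steps, chosen by name. Cd3d, Cd3e, Cd3g and Cd247 encode the CD3 delta, epsilon, gamma and zeta chains. Cd4 encodes the coreceptor that binds MHC class II, Lck and Zap70 the first kinases of the cascade, Lat the membrane adaptor that Zap70 phosphorylates, and Plcg1 the phospholipase that then makes the second messengers of calcium and diacylglycerol signalling. All 9 had a row among the 35976 gene rows of the tables and reached 5 CPM (reads per 1000000 reads in genes) in both pools.

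The study asked how an IL-13 signal bears on follicular helper T cells. OTII CD4 T cells, whose transgenic receptor recognises ovalbumin, were transferred into hosts and sorted from the spleen on day 7 after a treatment given as CAS, which the labels do not spell out, and a second priming. The deleted hosts carried floxed Il13ra1 alleles and CD11c-Cre (strain label IL13Ra1f/f, CD11cCre/+), and 3 mice were pooled. The control hosts were C57BL/6, and 2 mice were pooled. CD11c-Cre is active mainly in dendritic cells, so the host's cells and not the transferred T cells were the target, and no read in these T cells checks the deletion. The control strain label names neither floxed alleles nor Cre, so an effect of either cannot be told apart from the deletion. Host age and sex are not stated in the sources used here. The sort took live cells (no propidium iodide) with the receptor segments V beta 5.1/5.2 and with CD4, and names no marker that separates donor from host, so host CD4 T cells with those receptor segments could pass it.

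Each pool filled 368 wells of 4 plates with single cells for SmartSeq2, which reads full-length cDNA. The deleted-host cells gave 542650671 reads in genes and the control-host cells 573105030, with plates between 125197307 and 148025125. With 1 pool a group, differences between the pools have no replicate check, and no p-value is given. Plates are technical splits of a pool, and no plate held cells of both, so plate and group cannot be told apart. Of the CD8 T cell markers, Cd8a was positive in 0 cells of either pool, and Cd8b1 in 7 deleted-host and 16 control-host cells. Cd8a and Cd8b1 summed to 9.47 CPM in deleted hosts and 26.5 CPM in control hosts, nearly all of it Cd8b1. Natural killer cell markers summed to 22.2 and 17.6 CPM, and B cell markers to 4.90 and 5.01 CPM, in deleted and control hosts. At least 1 natural killer marker was positive in 18 deleted-host and 11 control-host cells, and at least 1 B cell marker in 5 and 8. Dendritic and myeloid markers summed to 89.3 CPM in deleted hosts and 95.4 CPM in control hosts, most of it Cst3 (70.5 and 80.6 CPM). Fewer cells of a type and less RNA per cell cannot be told apart in a pool's sum, and the part of other cells in the values below was not tested.

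Cd3d, Cd3e and Cd3g lie together on chromosome 9, and the windows around their starts are shown because Cd3d and Cd3g, which point away from each other, start only 1355 bases apart, while Cd3e starts 27825 bases from Cd3d. Plcg1 is shown beside them as the only one of the 9 genes whose plates did not overlap between the pools. The sequences are RefSeq promoter windows of GRCm38.p6, from 250 bases before to 50 bases after the start, printed 5′ to 3′ on the strand of the gene. They cover chr9:44981536-44981835 on the plus strand for Cd3d, chr9:44980382-44980681 on the minus strand for Cd3g, chr9:45009562-45009861 on the minus strand for Cd3e and chr2:160731060-160731359 on the plus strand for Plcg1. Capitals mark GGAAG or its complement CTTCC, the core that Ets family factors recognise.
Cd3d: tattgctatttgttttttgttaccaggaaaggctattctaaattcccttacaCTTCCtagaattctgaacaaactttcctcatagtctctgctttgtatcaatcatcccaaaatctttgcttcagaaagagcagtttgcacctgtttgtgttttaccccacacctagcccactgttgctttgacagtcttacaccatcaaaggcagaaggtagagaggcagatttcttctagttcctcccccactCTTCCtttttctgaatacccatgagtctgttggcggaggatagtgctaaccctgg
Cd3g: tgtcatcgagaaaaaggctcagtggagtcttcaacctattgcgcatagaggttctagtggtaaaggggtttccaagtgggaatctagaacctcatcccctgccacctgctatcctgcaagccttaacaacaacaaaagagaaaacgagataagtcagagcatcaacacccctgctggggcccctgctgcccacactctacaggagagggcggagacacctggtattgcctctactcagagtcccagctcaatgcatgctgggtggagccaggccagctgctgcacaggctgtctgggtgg
Cd3e: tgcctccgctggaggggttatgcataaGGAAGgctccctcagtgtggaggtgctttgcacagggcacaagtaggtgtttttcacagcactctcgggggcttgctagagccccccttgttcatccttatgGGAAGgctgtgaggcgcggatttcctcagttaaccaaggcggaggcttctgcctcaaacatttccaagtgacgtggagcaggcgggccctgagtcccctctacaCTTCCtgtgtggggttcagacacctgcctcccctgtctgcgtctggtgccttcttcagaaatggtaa
Plcg1: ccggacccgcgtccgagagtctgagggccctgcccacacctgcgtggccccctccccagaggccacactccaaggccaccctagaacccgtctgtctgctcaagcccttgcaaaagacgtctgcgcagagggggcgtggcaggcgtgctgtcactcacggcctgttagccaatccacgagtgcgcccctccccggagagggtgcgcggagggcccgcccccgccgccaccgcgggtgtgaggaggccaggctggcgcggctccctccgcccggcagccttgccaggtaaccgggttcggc
The Ets core stood 2 times in the Cd3d window, 3 times in that of Cd3e, and 0 times in those of Cd3g and Plcg1. RefSeq windows were matched by symbol for 8 of the 9 genes, all but Cd4, with 11 windows in all, and 8 of the 11 held the core, against 71.4% of all 32851 windows of that length. The E-box, CANNTG, stood 4 times in the Cd3g window, and 11 of the 11 windows held at least 1, against 72.3% of all windows. The GC box, GGGCGG or CCGCCC, stood 2 times in the Plcg1 window and is found in 35.7% of all windows. The TATA box, TATAAA or TTTATA, was in 0 of the 11 windows and in 13.6% of all. Motifs were counted on both strands, whether or not they overlapped another motif, and were chosen with the sequences seen. The windows also differed in base composition. Plcg1 had 72.0% G and C and 27 CpG dinucleotides, whereas Cd3d had 42.3% and 1, Cd3g 54.0% and 4, and Cd3e 56.7% and 8. The median window had 52.7% and 7.

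All 4 CD3 chain genes were at similar levels in T cells from deleted and control hosts, and the plates of the pools overlapped for each. Their summed level was 2777 CPM in deleted hosts (2641 to 2852 over plates) and 2935 CPM in control hosts (2787 to 3201). The 3 chain genes of the chromosome 9 cluster did not share a level. Per kilobase of exon (GENCODE annotation of GRCm38), Cd3d stood at 381 CPM in deleted hosts and 420.4 CPM in control hosts, Cd3g at 295 and 301 CPM, and Cd3e at 52.0 and 54.2 CPM.

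Cd3d (chromosome 9, 44981786 to 44987339) encodes the delta chain, which pairs with epsilon. Its level was 653, 689, 784 and 640.1 CPM on the deleted-host plates, against 867, 739, 728 and 718 CPM on the control-host plates. Control plate 1 was the highest of the 8 plates, and deleted plate 3 lay above the other 3 control plates. Over the pools Cd3d was at 692 CPM in deleted hosts and 763 CPM in control hosts, a log2 ratio of CPM + 1 of -0.14.

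Cd3g (chromosome 9, 44969572 to 44980431) encodes the gamma chain, the other partner of epsilon. Its plates held 1015, 1045, 823 and 977 CPM in deleted hosts, against 972, 909.9, 938 and 1107 CPM in control hosts. The lowest value was in deleted hosts and the highest in control hosts, with the other 6 plates interleaved, and the log2 ratio of the pools was -0.03.

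Cd3e (chromosome 9, 44998740 to 45009627) encodes the epsilon chain, which is part of both CD3 pairs. It had 196, 254, 218 and 181 CPM on the deleted-host plates, against 243, 182, 272 and 188 CPM on the control-host plates. Both pools spanned nearly the same range, with a log2 ratio of -0.06. An antisense gene, Gm48719, shares 3.31% of the Cd3e exon bases.

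Cd247 (chromosome 1, 165788681 to 165877277) encodes the zeta chain, which carries most of the complex's signalling motifs. Its plates were at 986, 864, 953 and 842 CPM in deleted hosts, against 1119, 972, 849.7 and 930.0 CPM in control hosts. The log2 ratio was -0.09, and control plate 1 was again the highest. Of the annotated Cd247 exon bases, 56.4% are shared with Pou2f1 on the opposite strand, a transcription factor gene at 47.3 CPM in deleted hosts and 45.1 CPM in control hosts. The strand setting of the counts is not given in the sources used here, so reads in the shared stretch cannot be told apart.

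Cd4 (chromosome 6, 124864692 to 124888221) had the lowest ratio of the 9 genes. Its plates were at 687, 1013, 652 and 776 CPM in deleted hosts, against 1072, 746, 902 and 932 CPM in control hosts. Deleted plate 2 was higher than 3 of the 4 control plates, and control plate 2 lower than 2 deleted plates, so the pools overlapped. The pool levels were 783 CPM in deleted hosts and 915 CPM in control hosts (log2 ratio -0.22).

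Lck (chromosome 4, 129548344 to 129573641), the Src family kinase that CD4 brings to the receptor, was the most abundant of the 9 genes per exon length, at 1062 CPM per kilobase in deleted hosts and 972 in control hosts. Its plates were at 3048, 3521, 2995 and 2889 CPM in deleted hosts, against 3192, 2825, 2684 and 2694 CPM in control hosts. Only control plate 1 lay within the deleted-host range. The log2 ratio was 0.13.

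Zap70 (chromosome 1, 36761798 to 36782818), the kinase that docks on phosphorylated CD3 tails, had 283, 489.9, 494 and 429 CPM on the deleted-host plates, against 575, 469, 355 and 383 CPM on the control-host plates. Plates differed by up to 2.03-fold, with the lowest of the 8 among the deleted-host plates and the highest among the control-host plates. Its log2 ratio over the pools was -0.06.

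Lat (chromosome 7, 126363824 to 126369570) had 1173, 1216, 942 and 1042 CPM on the deleted-host plates, against 999, 955, 1046 and 1053 CPM on the control-host plates. Deleted plates 1 and 2 lay above all control-host plates, and deleted plate 3 lay below them all. The log2 ratio was 0.10.

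Plcg1 (chromosome 2, 160731300 to 160775760) was higher on every deleted-host plate than on any control-host plate. It had 245, 184, 203 and 195 CPM in deleted hosts, against 109, 128, 165 and 173 CPM in control hosts. The gap between the pools was narrow, with a log2 ratio of 0.08 between the lowest deleted-host plate and the highest control-host plate. Over the pools it was at 206 CPM (Poisson interval 205 to 207) in deleted hosts and 144 CPM (143 to 145) in control hosts, a 1.42-fold higher level and a log2 ratio of 0.51. These 95% intervals are exact and cover the counting error of reads only. With each plate left out in turn the log2 ratio stayed between 0.40 and 0.61. Leaving out a plate cannot make plates overlap that were apart, so those runs do not check the separation. Zhx3, on the opposite strand, shares 4.82% of the Plcg1 exon bases and was at 13.4 CPM in deleted hosts and 19.4 CPM in control hosts.

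**Figure D1:**
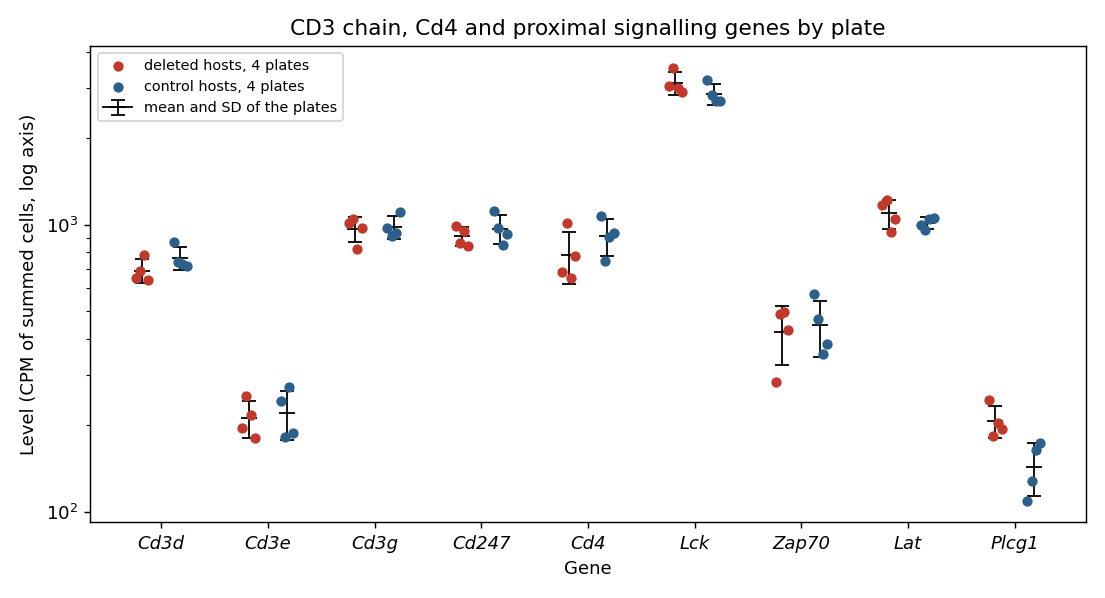
Level of each of the 9 genes, in CPM of the summed cells of a plate on a log axis, with the 4 deleted-host plates in red left of the 4 control-host plates in blue. Black marks give the mean and SD of the plates. Plcg1 is the only gene whose red and blue points do not overlap.

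Across the 9 genes, 1 had plates that did not overlap between the pools. The share over all 9764 genes at 5 CPM or more in either pool was 4.41%, and 6.28% over the 2388 genes at 100 CPM or more, where all 9 genes lie. Higher in deleted hosts without overlap, as Plcg1 was, were 1.81% of the 9764 genes and 2.43% of the 2388. With 1 gene of 9, no statement about the 9 genes as a set follows from it. None of the 9 genes (0 of 9) differed by 2-fold, against 12.7% of all genes and 0.963% of those at 100 CPM or more. The median log2 ratio of the 9 genes was -0.06, with 3 above and 6 below 0, and that of all genes measured was -0.04. Together the 9 genes took 8393 CPM in deleted hosts and 8301 CPM in control hosts, or 0.839% and 0.830% of reads in genes.

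In single cells the same genes fell into a group detected in most cells and a group detected in a minority. Positive means 10 CPM or above in that cell and also no less than 5% of the mean of the gene over its plate. In the 9 wells without a cell, each of the 9 genes had at most 24 reads, and 0 of these wells reached the threshold at the depth of a median cell. A further 23 wells of other input were labelled mBM10 or mBM100, names the labels do not explain. As their input is not known, they set no background for a positive call. Pooled over these wells, the 9 genes ranged from 2.47 CPM (Cd3e) to 35.0 CPM (Lck), with Plcg1 at 30.5 CPM.

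Among the CD3 chains, Cd3g was positive in 333 of 368 deleted-host cells (90.5%, exact binomial 95% interval 87.0 to 93.3%) and in 338 of 368 control-host cells (91.8%, 88.6 to 94.4%). Cd3e was positive in 326 deleted-host cells (88.6%, 84.9 to 91.6%) and 339 control-host cells (92.1%, 88.9 to 94.7%). Cd3d was positive in 321 deleted-host cells (87.2%) and 322 control-host cells (87.5%). Cd247 was found in fewer cells, 261 in deleted hosts (70.9%, 66.0 to 75.5%) and 263 in control hosts (71.5%, 66.6 to 76.0%). Its median in positive cells was nevertheless 1170 CPM in deleted hosts and 1111 CPM in control hosts, above the 932 and 935 CPM of Cd3g.

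Although cells were sorted on CD4 protein, Cd4 transcript was positive in 229 deleted-host cells (62.2%, 57.1 to 67.2%) and 248 control-host cells (67.4%, 62.3 to 72.2%). Plate shares ran from 56.5 to 70.7% in deleted hosts and from 63.0 to 71.7% in control hosts, and they overlapped. Over both pools 259 cells were below the Cd4 threshold, and their median of 5 reads was near the 4 reads of wells without a cell. Few cells lay close to the cut, with 27 within 2-fold under it and 24 within 2-fold over it. Positive cells had a median of 1080 CPM in deleted hosts and 1065 CPM in control hosts.

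Lck was positive in 341 deleted-host cells (92.7%) and 342 control-host cells (92.9%), and Lat in 329 (89.4%) and 321 (87.2%). Zap70 was positive in 138 deleted-host cells (37.5%, 32.5 to 42.7%) and 159 control-host cells (43.2%, 38.1 to 48.4%). Where it was found it was abundant, with a median of 1103 CPM in positive deleted-host cells and 915 CPM in positive control-host cells. Over all cells its median was 2.81 CPM in deleted hosts and 3.55 CPM in control hosts, at the level of 4 reads in the median cell, whereas wells without a cell held a median of 2 reads.

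Plcg1 was positive in 110 deleted-host cells (29.9%, 25.3 to 34.9%) and 103 control-host cells (28.0%, 23.5 to 32.9%). Plate shares ran from 26.1 to 33.7% in deleted hosts and from 23.9 to 30.4% in control hosts, and they overlapped although the levels did not. The median level of positive cells was 543 CPM in deleted hosts and 444 CPM in control hosts. The 37 cells with the most Plcg1 in each pool held 67.0% of the summed single-cell CPM of Plcg1 in deleted hosts and 67.5% in control hosts. For Lck the 37 highest cells held 24.5% in deleted hosts and 24.1% in control hosts. The coefficient of variation over cells was 2.19 for Plcg1 in deleted hosts and 2.22 in control hosts, and 0.69 and 0.68 for Lck.

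**Figure D2:**
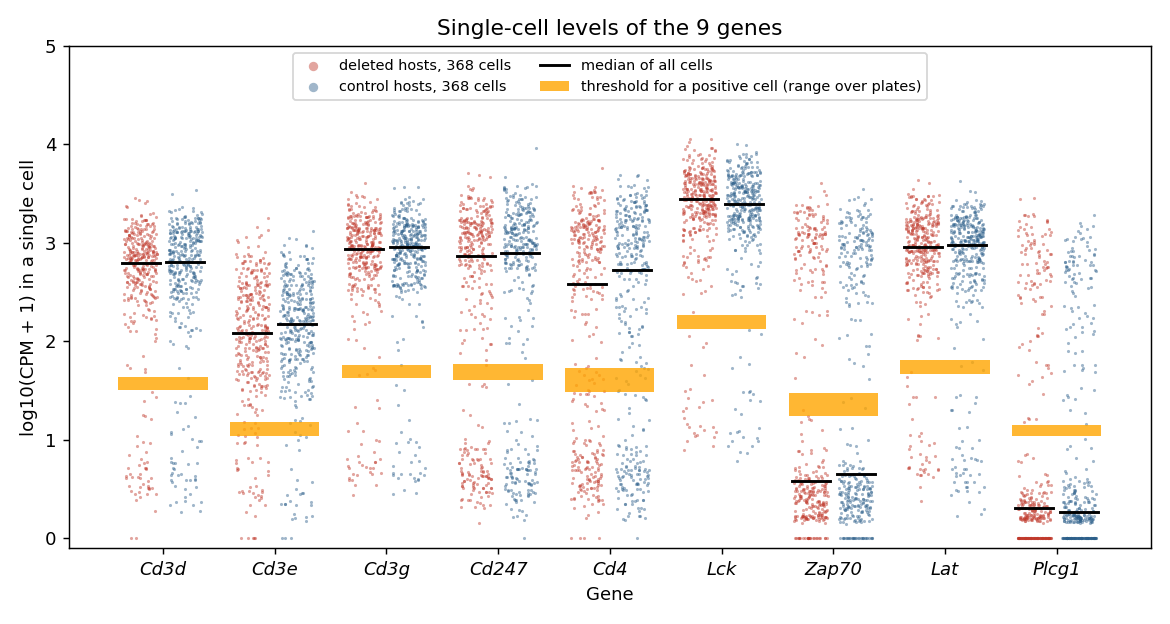
Level of each gene in every single cell, as log10(CPM + 1), with deleted-host cells in red left of control-host cells in blue, the median of all cells in black and the threshold for a positive cell as an orange band. Cd3d, Cd3g, Lck and Lat form 1 main cloud above the band, Cd247 and Cd4 another cloud under it, and most cells lie under it for Zap70 and Plcg1.

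Cd3e differed from the other 8 genes in how level and detection went together. At a mean of 217 CPM over the pools, 90.4% of all 736 cells were positive, whereas the 200 genes nearest to it in level were positive in a median of 30.5% of cells. Of those 200 genes, 2 were positive in more cells. Its median in positive cells was only 144 CPM in deleted hosts and 165 CPM in control hosts. Cd3e was thus seen at a low level in most cells, while Zap70, at a higher pool level of 436 CPM, was seen at a high level in 40.4% of cells. At 50 CPM for every gene its share was 71.7% in deleted hosts and 79.3% in control hosts, and over all cells it was 75.5%, against a median of 28.0% for the same 200 genes, with 7 of them higher. The comparison with those 200 genes at 50 CPM was chosen after the data were seen.

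Cd3d, Cd3g, Lat and Lck were also positive in more cells than most genes of their level. Their shares over both pools were 87.4, 91.2, 88.3 and 92.8%, where their nearest 200 genes had medians of 62.7, 70.4, 71.5 and 77.2%. Cd247 (71.2% against 70.0%), Plcg1 (28.9% against 26.4%), Cd4 (64.8% against 68.1%) and Zap70 (40.4% against 46.4%) lay near the median of their neighbours. These neighbours are a description and share depth and libraries with the 9 genes.

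**Figure D3:**
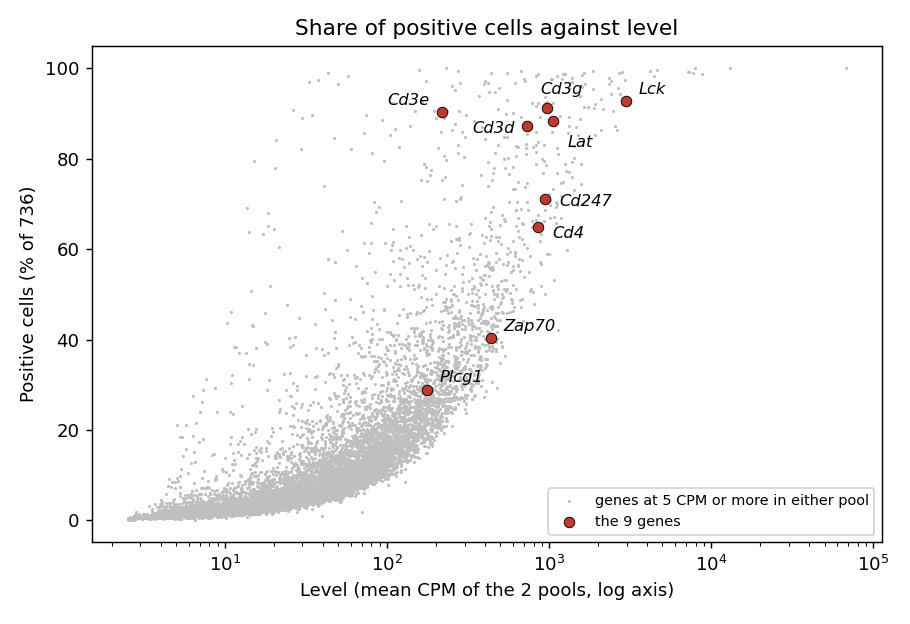
Share of the 736 cells that were positive against the mean CPM of the pools on a log axis, for all 9764 genes at 5 CPM or more in grey and for the 9 genes in red. Cd3e stands above the grey band at its level, Cd3d, Cd3g, Lat and Lck along its upper part, and Plcg1, Zap70, Cd4 and Cd247 within it.

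The complex was rarely missed as a whole. At least 3 of the 4 CD3 chain genes were positive in 328 deleted-host cells (89.1%) and 326 control-host cells (88.6%), and all 4 in 195 (53.0%) and 209 (56.8%). The product of the 4 single shares was 49.6% in deleted hosts and 52.9% in control hosts, little below the shares of cells with all 4. The same comparison was not made for cells with at most 1 chain or none, so joint absence of the chains was not tested. No chain gene was positive in 3 deleted-host cells, with 178914 to 1126121 reads, and in 1 control-host cell, with 223440 reads. Cells with at most 1 chain numbered 15 in deleted hosts and 8 in control hosts. Those cells held median totals of 1126121 and 1195044 reads, below the 1499762 and 1592794 reads of all cells of their pools. All 9 genes were positive in 14 deleted-host cells and 23 control-host cells, and the median cell had 7 in both pools. One well of deleted plate 4 held only 9905 reads, as few as wells without a cell, yet counted as positive for 7 of the 9 genes, as few reads pass a CPM threshold at that depth.

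Levels of the 9 genes hardly varied together from cell to cell. Over 735 cells with at least 10000 reads, after plate means were subtracted, the 36 pairs had Pearson correlations of log2(CPM + 1) from -0.05 to 0.15, with a median of 0.06. Cells share libraries and depth, and correlations this weak in sparse counts are no finding. The mean of the 4 CD3 chain genes correlated at 0.30 with the number of genes at 5 or more reads in a cell and at 0.22 with its reads. Genes outside the 9, at 20 CPM or more, were ranked by their correlation with that mean. The highest were Tmsb4x (0.27), Pfn1 (0.23), Rac2 (0.21), Rpl18 (0.19) and Cnn2 (0.19). Tmsb4x encodes a thymosin that binds actin, and Pfn1 the actin-binding profilin. Rac2 encodes a small GTPase of blood cells, Rpl18 a ribosomal protein and Cnn2 a calponin. Within the 9, Cd4 correlated with the mean at 0.21, above Rpl18 and Cnn2. Lck stood at 0.13, Lat at 0.11, Zap70 at 0.10 and Plcg1 at 0.04. None of these values exceeded the correlation with the number of genes detected.

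Cd44 encodes an adhesion receptor that is abundant on activated and memory T cells, and its transcript split the cells of each plate. It was positive in 56 deleted-host cells (15.2%, 11.7 to 19.3%) and 49 control-host cells (13.3%, 10.02 to 17.2%). This is a split by transcript and not by protein. Cells with Cd44 had a median of 1780 genes at 5 or more reads in deleted hosts and 1777 in control hosts, against 1506.5 and 1540 in cells without it. The part of this difference in the values that follow was not tested.

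Scaled to CPM, the levels of the CD3 chains, Lck and Lat were close in cells with and without Cd44. In deleted hosts Cd3g was at 1046 CPM with Cd44 and 948 CPM without it, and in control hosts at 1078 and 968 CPM. Lck was at 3270 CPM with and 3080.5 CPM without Cd44 in deleted hosts, and at 3031 and 2819 CPM in control hosts. Lat was at 1099 CPM with and 1089 CPM without Cd44 in deleted hosts, and at 961 and 1023 CPM in control hosts. Cd3d had log2 ratios of cells with over cells without Cd44 of 0.16 in deleted hosts and 0.31 in control hosts. Cd3e had 0.31 and -0.05, and Cd247 0.28 and 0.07. Single plates, with 9 to 15 cells positive for Cd44, ran on both sides of 0 for each of the 9 genes.

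Cd4 and Zap70 had the highest ratios in both pools with Cd44 called at 10 CPM, but not under every setting. Cd4 was at 1088 CPM with Cd44 and 727 CPM without it in deleted hosts (log2 ratio 0.58), and at 1180 and 873 CPM in control hosts (0.43). Zap70 was at 599 CPM with and 396 CPM without Cd44 in deleted hosts (0.60), and at 608 and 419 CPM in control hosts (0.53). With Cd44 called at 100 CPM, the ratio of Zap70 in deleted hosts was 0.30, below that of Plcg1 (0.47), and the ratio of Cd4 in control hosts was 0.25, below that of Cd3d (0.40). Without control plate 1 the control-host ratios were 0.24 for Cd4 and 0.26 for Zap70, both below Plcg1 (0.29). The level of Cd4 was higher with Cd44 on 6 of the 8 plates and that of Zap70 on 7. These counts do not set them apart, as Cd3d was higher on 7 and Cd3g and Cd247 on 6. Cd3e and Lck were higher on 5, and Lat and Plcg1 on 3. The share of all genes at 6 or 7 plates was not computed. For both Cd4 and Zap70 the share of positive cells was higher with Cd44 on 8 of 8 plates. Of the 9764 genes 2.44% also showed this, and 5.19% of the genes at 100 CPM or more. Cd4 was positive in 82.1% of deleted-host cells with Cd44 (69.6 to 91.1%) and 58.7% of those without it (53.0 to 64.2%). In control hosts the shares were 79.6% (65.7 to 89.8%) with and 65.5% (60.0 to 70.7%) without Cd44. Zap70 was positive in 53.6% of deleted-host cells with Cd44 (39.7 to 67.0%) and 34.6% of those without it (29.3 to 40.2%). In control hosts its shares were 57.1% (42.2 to 71.2%) with and 41.1% (35.6 to 46.7%) without Cd44. These intervals cover counting error within 1 pool only. Cells are not replicates, so whether the intervals overlap is no test, within a pool or between the pools. After every cell was thinned to 500000 reads, Cd4 was positive in 81.1% of deleted-host cells with and 58.2% of those without Cd44, and Zap70 in 54.7 and 34.7%. In control hosts the thinned shares were 80.0 and 65.5% for Cd4, and 58.0 and 41.1% for Zap70.

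Plcg1 had log2 ratios of 0.19 in deleted hosts and 0.17 in control hosts, but its plates ranged from -1.05 to 1.20 and 5 of 8 were below 0. None of the 9 genes differed by 2-fold between cells with and without Cd44 in either pool (0 of 9). Over all genes measured 32.7% did so in deleted hosts and 33% in control hosts, and over genes at 100 CPM or more 7.83% and 7.33%. None of the 9 was at a higher level with Cd44 on all 8 plates, where the share was 0.358% over all genes and 0.586% at 100 CPM or more. Above 0 in both pools at once were 7 of the 9 genes, against 21.7% of all genes and 24.7% of those at 100 CPM or more. The exceptions, Cd3e and Lat, were below 0 in control hosts only. The median of the 9 genes was 0.19 in deleted hosts and 0.16 in control hosts, and that of all genes -0.10 in each. With median-of-ratios scaling the median of all genes moved to 0.31 in each pool. Zap70 then passed 2-fold in deleted hosts (log2 ratio 1.05) and control hosts (1.01), Cd4 passed it in deleted hosts (1.01), and Cd3e and Lat turned above 0 in control hosts. In deleted and control hosts Cd3d was then at 0.57 and 0.78, Cd3g at 0.60 and 0.57, and Cd3e at 0.73 and 0.39. Cd247 was at 0.71 and 0.41, Lck at 0.52 and 0.53, and Lat at 0.45 and 0.32. Relative to the median of all genes, the median of the 9 was 0.29 in deleted hosts and 0.25 in control hosts, and 0.29 and 0.23 with that scaling. Relative to all genes the ratios of Lat were 0.11 and 0.01, the lowest of the 9 in both pools.

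**Figure D4:**
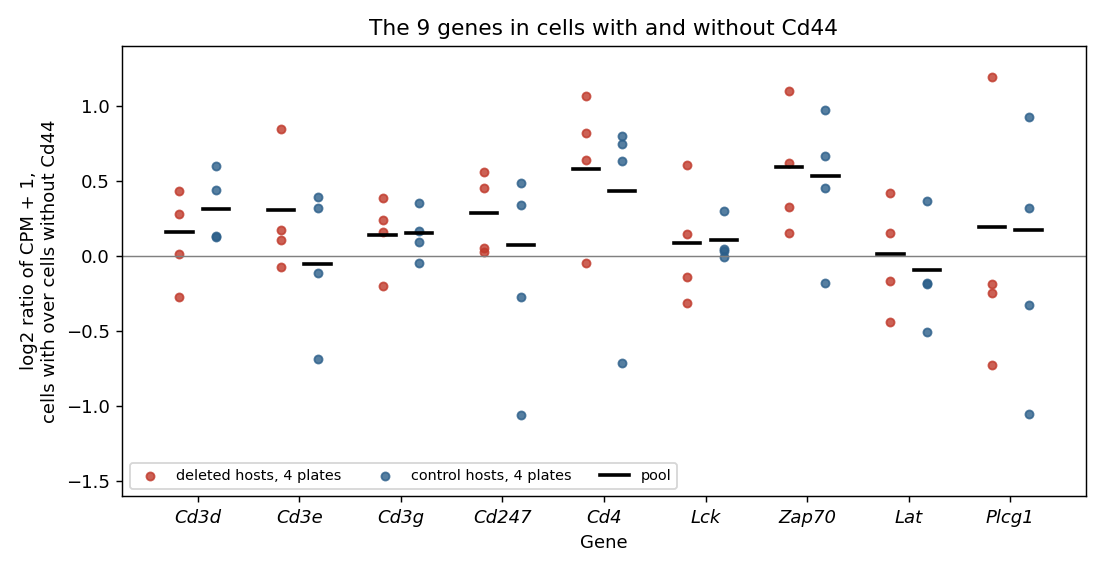
Log2 ratio of CPM + 1 in cells with over cells without Cd44, for each of the 9 genes, with deleted-host plates in red left of control-host plates in blue and the pool as a black bar. With Cd44 called at 10 CPM, Zap70 and Cd4 have the highest pool values, between 0.43 and 0.60, and the plates of every gene lie on both sides of 0.

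A list of 61 further genes of receptor signalling, arranged by role, was set beside the 9. Trac, Trbc1 and Trbc2 were not analysed here, and Cd8a was under 5 CPM, which left 57 genes measured. Of these, 3 were higher and 2 lower in deleted hosts without overlap of plates (8.77%, against 4.41% of all genes), and their median log2 ratio was 0.00, with 29 above and 28 below 0. By the 2-fold rule of size, 3 of the 57 were higher and 3 lower. In either direction 12.7% of all genes measured passed that rule, and 0.963% of those at 100 CPM or more. Of these 6, Ppp3ca, a calcineurin catalytic subunit (24.9 CPM in deleted hosts and 10.7 CPM in control hosts), and Cd8b1, the CD8 beta chain gene (9.27 and 26.3 CPM), had overlapping plates and are named here after their values were seen.

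Among coreceptor relatives and costimulatory receptors, 0 of 5 were without overlap. Cd2, an adhesion and costimulatory receptor, was at 1023 CPM in deleted hosts and 879 CPM in control hosts, and Cd6, a scavenger-type receptor of T cells, at 885 and 901 CPM. Of the 4 other kinases, 0 were without overlap. Fyn, the Src family kinase beside Lck, was at 652 CPM in deleted hosts and 547 CPM in control hosts. Of the 6 genes that control Lck, 0 were without overlap. Ptprc, which encodes the phosphatase CD45, was at 1958 CPM in deleted hosts and 1871 CPM in control hosts, and Ptpn6, the phosphatase SHP-1, at 690.3 and 849 CPM.

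Of 10 negative regulators, 2 were higher without overlap, where 1.81% of the 9764 genes and 2.43% of those at 100 CPM or more were, and no theme is read from 2 genes. Cblb, an E3 ubiquitin ligase that restrains T cell activation, was at 249.9 CPM in deleted hosts (236 to 261 over plates) and 116 CPM in control hosts (70.6 to 174). It was positive in 142 deleted-host cells (38.6%) and 86 control-host cells (23.4%). Ubash3a, a suppressor of receptor signalling, was at 515 CPM in deleted hosts (472 to 560.1 over plates) and 347 CPM in control hosts (292 to 405). The other 8 negative regulators overlapped between the pools, among them Dgka, the kinase that removes diacylglycerol (1603 and 1520.1 CPM in deleted and control hosts), and the adaptor Sla (369.7 and 357 CPM).

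Of the 14 adaptors, 0 were without overlap, with log2 ratios between -0.55 and 0.16. Lcp2, which encodes SLP-76, the partner of Lat, was at 648 CPM in deleted hosts and 647 CPM in control hosts, and Skap1 at 589.7 and 661 CPM. Among 18 genes further downstream, Prkcq, the protein kinase C theta gene, was at 592 CPM in deleted hosts and 613 CPM in control hosts, and Rasgrp1, which couples diacylglycerol to Ras, at 363 and 420.0 CPM. The 3 downstream genes without overlap were all below 20 CPM in both pools. Nfatc2, a calcium-regulated transcription factor, was at 19.1 CPM in deleted hosts and 6.48 CPM in control hosts, in 16 and 9 positive cells. Ppp3cb, a calcineurin catalytic subunit, was at 6.95 CPM in deleted hosts and 19.6 CPM in control hosts, in 27 and 37 positive cells, and Mapk3, the kinase ERK1, at 2.06 and 10.2 CPM, in 4 and 17.

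**Figure D5:**
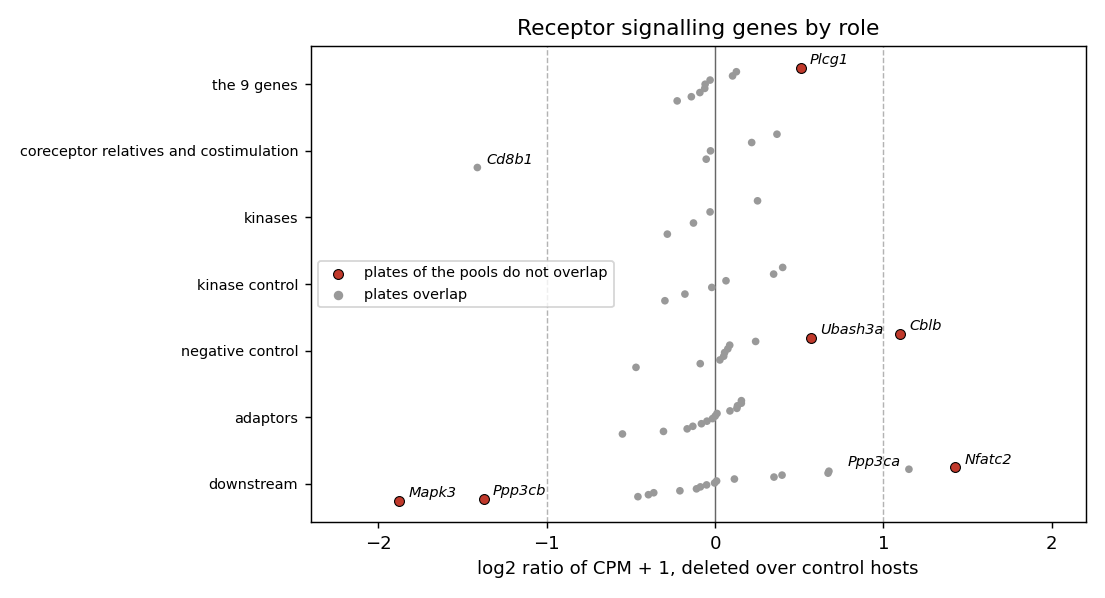
Log2 ratio of CPM + 1 in deleted over control hosts for the 9 genes and for the measured genes of the signalling list by role. Red points are genes whose plates do not overlap between the pools, dashed lines mark 2-fold, and most points lie near 0.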

How the data were processed

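Per the file headers and values, each of the 8 deposited tables holds raw read counts, genes by wells of 1 plate. Reads were counted with featureCounts 2.0.1 on mm10 (GRCm38), per the submitters' processing notes. Which aligner and annotation were used, and how strand and multi-mapping reads were handled, is not given in the sources used here. Per the labels' protocols, cDNA was amplified with 25 PCR cycles, and no molecular identifiers are named, so copies of 1 molecule count separately. Each plate held 92 cell wells and 4 control wells, which entered no comparison.

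Counts were added up per plate and per pool and scaled to CPM. Log2 ratios used a pseudocount of 1 CPM. Genes at 5 CPM in either pool counted as measured, plates as overlapping unless all 4 of a pool lay above all 4 of the other, and 2-fold was the rule of size. Shares have exact (Clopper-Pearson) 95% intervals and levels exact Poisson ones. Both kinds cover counting error only. The median cell had 1530282 reads. No cell was removed, and doublets were not called, as wells received single sorted cells. Analyses used Python 3.11.15, numpy 2.4.6, pandas 2.3.3 and scipy 1.17.1. The overlap rule was tested on simulated data with 2-fold changes only, so smaller differences such as that of Plcg1 were not covered.

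The 9 genes, the signalling list and the marker lists were chosen with earlier results of these data known. Named were the 9 genes and Cd44, list genes whose plates did not overlap, and up to 2 further genes per role with the highest level. The 5 genes outside the 9 most correlated with the CD3 chains were named too. A gene that this rule names is not reported here. Alternatives covered scaling, pseudocount, thresholds, thinning, shallow wells, the highest cell and each plate left out.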

Additional observations from a re-analysis of the deposited data

Results flagged for a closer look

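Of 36 groups of 4 plate values (levels and shares of positive cells of the 9 genes in each pool), 1 held a value far from the others. Cd3d was at 867 CPM on control plate 1, while the other 3 control plates lay between 718 and 739 CPM, so the gap to the nearest plate took 0.862 of the whole range. Chance alone marks about 1 in 20 such groups.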

How the results depend on the processing

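The log2 ratios of the 9 genes between deleted and control hosts moved by less than the spread of plates under every alternative run. So did their median and the shares of positive cells. Runs with 1 plate left out could hardly exceed that spread, which combines both pools, as the other plates of the pool remain. The sign changed between runs for Cd3e (-0.16 to 0.05), Cd3g (-0.07 to 0.04) and Zap70 (-0.15 to 0.09). Leaving out 1 plate at a time, 1 to 2 of the 9 genes had plates that did not overlap. The count was 2 without deleted plate 3, where Cd3d was lower in deleted hosts, and 2 without control plate 1, where Lck was higher in deleted hosts. Plcg1 was among them in every case, as leaving out a plate cannot make separated plates overlap. Over all genes the count was 431, but 150 at a minimum of 100 CPM, where 2388 and not 9764 genes were tested, and 576 with no minimum. For cells with over cells without Cd44, median-of-ratios scaling moved the median of the 9 genes to 0.60 in deleted hosts and 0.55 in control hosts, together with the shift of all genes, and turned Cd3e and Lat in control hosts to 0.39 and 0.32. With plates left out, that median ranged from 0.09 to 0.34 in deleted hosts, the highest without deleted plate 1, and from 0.08 to 0.18 in control hosts. The value without deleted plate 1 lay further from the 0.19 of all plates than the spread of plates (0.14). Of the single-gene ratios, 7 in deleted hosts and 4 in control hosts moved by more than the spread of plates, each under that scaling. Thresholds of 50 and 100 CPM for Cd44, thinning to 500000 reads, and leaving out the well under 10000 reads (chosen after the data were seen) moved neither median by more than the spread of plates. No paired analysis was possible because each group is 1 pool and plate numbers mark no shared animal, day or batch. After thinning, the shares of positive cells over both pools were 28.9% for Plcg1 and 40.5% for Zap70, against 28.9% and 40.4% at full depth. Each pool is 1 sample, which depth does not change.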
